A study of Mus musculus with 4 samples.

Results

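The TGF-beta ligands, receptors and SMADs described here are 10 genes of mouse abdominal aorta, chosen by name with earlier results of these data known. They are the ligands Tgfb1, Tgfb2 and Tgfb3 and the receptors Tgfbr1, Tgfbr2 and Tgfbr3. The others are the signal carriers Smad2 and Smad3 and the brakes Smad7 and Skil. On the array, 20 of 56605 probes that are not controls carry one of these names, and 10 of 37074 gene names are theirs. All 20 probes were well above background on all 4 arrays, and the 10 genes were among the 22497 genes tested. None of the 10 passed the test over all genes. The ligand gene Tgfb2 and the receptor genes Tgfbr2 and Tgfbr3 were higher on both arrays labelled knockout than on both labelled wild type, by 0.66 ± 0.28, 0.50 ± 0.30 and 0.79 ± 0.32 on the log2 scale (SE, n = 2 arrays a group), and Tgfb3 was lower on both, at -0.32 ± 0.28. The groups also did not overlap for Smad3, Smad7 and Skil, which makes 7 of the 10 genes. Of all genes tested, 29.8% had no overlap.

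The study placed CaPO4 on the abdominal aorta, a mouse model of aortic injury with calcification and aneurysm, and measured RNA of the vessel 4 weeks later. The wild type group (2 arrays) and the SR-A1-/- group (2 arrays) were both male mice, 12 weeks old, and every mouse had received CaPO4, so that no array of an untreated aorta enters the comparison. SR-A1 is the class A scavenger receptor of macrophages, encoded by Msr1. The labels describe neither how the SR-A1-/- allele was made nor its strain, and nothing in them tells whether an array holds 1 aorta or a pool. The design text calls the 2 samples of a group independent experiments without saying whether they came from separate mice, so that the p-values measure the spread between these arrays, which may be in part technical.

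TGF-beta ligands are secreted in a latent form bound to the matrix, and once released they bind a type II receptor, which then activates a type I receptor. The activated pair phosphorylates SMAD2 and SMAD3, which enter the nucleus with SMAD4 and switch on genes of the matrix and of contractile smooth muscle, along with feedback inhibitors. In the aortic wall the pathway is known for keeping smooth muscle cells differentiated and for building collagen and elastic fibres, and inherited defects in its ligands, receptors and SMADs cause aneurysm in people.

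Levels are log2 of the processed signal minus the 75th percentile of the same array, so that 0 is a probe as bright as that percentile. They are compared between arrays for 1 probe at a time and never between probes, whose brightness depends on their sequence. A gene is represented by its brightest probe. Differences are knockout minus wild type on the log2 scale, with limma's standard error and 95% interval, and adjusted p-values are those of limma with Benjamini-Hochberg adjustment over all genes tested.

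The arrays are called wild type 1 and 2 and knockout 1 and 2 after their labels. Their 75th percentiles were 132, 220, 245 and 133 in that order, so each signal level holds 1 array of each group. Between 57.6 and 62.6% of probes were above background. Msr1, the targeted gene, was above background on both arrays labelled knockout, at -1.26 and -2.09, and on wild type 2, at -2.10, but not on wild type 1. It was thus not lower on the arrays labelled knockout, which goes against the labels, and no difference is given because wild type 1 holds only a bound. Of the 2 Msr1 probes tested, these values are from the brighter. Both probes had a higher mean on the arrays labelled knockout. Where they lie relative to the deleted part is unknown, since the labels do not describe the allele, and wild type and knockout below stand for labels only. All 10 smooth muscle markers and all 8 endothelial markers were above background on every array, and so were 9 of 9 skeletal muscle genes and 6 of 7 white adipocyte genes. The smooth muscle markers summed to 1990 and 1500 times the 75th percentile in wild type and 1170 and 1380 in knockout, with 0 of 10 higher in knockout. The 10 macrophage markers summed to 165 and 340 against 272 and 278, and their median difference was 1.36. Of the other marker lists, fibroblast markers had a median difference of 0.53 (7 of 8 higher in knockout), T and NK cell markers of 0.95 (8 of 8 higher) and skeletal muscle markers of -1.87 (6 of 9 lower). In whole tissue, fewer cells of a type and less RNA per cell cannot be told apart, and the part that these shifts play in the values below was not tested.

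Among the ligands, Tgfb2, which signals through the same receptors as the other ligands but needs the co-receptor Tgfbr3 to bind well, read 2.45 and 2.40 in wild type and 2.98 and 3.19 in knockout. Both knockout arrays were above both wild type arrays, and the arrays of a group lay within 0.21 of each other. The difference was 0.66 ± 0.28 (95% interval -0.06 to 1.38, 1.58-fold, adjusted p = 0.84). Tgfb1, the ligand most often tied to macrophages and platelets, read 0.46 and 0.00 in wild type and -0.04 and 1.30 in knockout. The groups overlapped, because knockout 2 was the highest array and knockout 1 the lowest. The difference was 0.40 ± 0.52 (interval -0.95 to 1.76, adjusted p = 1), and without knockout 2 it was -0.26. That array also stood apart in white adipocyte genes, whose summed level was 28.8 there against 391 to 663 on the other arrays, and the part of this in the Tgfb1 value was not tested. Tgfb3, the ligand best known from palate and scar formation, read 4.87 and 5.10 in wild type and 4.69 and 4.65 in knockout. Both knockout arrays were below both wild type arrays, by little, and the difference was -0.32 ± 0.28 (interval -1.04 to 0.41, adjusted p = 1).

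The probes behind the Tgfb1 and Tgfb2 values are shown because both lie in the part of the transcript that codes for the secreted ligand, which the family shares, and a probe that met both transcripts could not separate them. Both are 60 bases long and are written 5′ to 3′ with capitals for bases that are identical in the best placement of one on the other without gaps. The Tgfb1 probe lies at chr7:26489877-26489936 on the plus strand and the Tgfb2 probe at chr1:188449333-188449392 on the minus strand, both in mm9 as the files place them.
Tgfb1: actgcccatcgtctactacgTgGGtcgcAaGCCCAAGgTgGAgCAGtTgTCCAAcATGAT
Tgfb2: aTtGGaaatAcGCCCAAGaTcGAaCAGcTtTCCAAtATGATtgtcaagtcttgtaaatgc
In that placement 28 of 41 overlapping bases were identical (68.3%), in short runs broken by differences. The array values of these probes did not run in parallel: wild type 1 was above wild type 2 by 0.46 on the Tgfb1 probe and by 0.05 on the Tgfb2 probe, and knockout 1 was the lowest array for Tgfb1 and above both wild type arrays for Tgfb2.

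Of the receptors, Tgfbr3 (betaglycan), the co-receptor that presents ligands and above all TGF-beta2, had the largest difference of the 10 genes with all 4 arrays in the fit, an order that did not hold without wild type 1, wild type 2 or knockout 1. It read 3.34 and 2.98 in wild type and 4.15 and 3.75 in knockout, with no overlap. The difference was 0.79 ± 0.32 (interval -0.04 to 1.62, 1.73-fold, adjusted p = 0.811). Tgfbr2, the type II receptor that binds the ligand first, read 3.84 and 4.03 in wild type and 4.59 and 4.27 in knockout, again with no overlap. Its difference was 0.50 ± 0.30 (interval -0.26 to 1.27, 1.42-fold, adjusted p = 1). The Tgfbr3 probe is at chr5:107535818-107535877 and the Tgfbr2 probe at chr9:115996798-115996807, a position that covers only part of its 60 bases. Tgfbr1, the type I receptor kinase that phosphorylates the SMADs, went the other way or not at all: it read 1.48 and 2.13 in wild type and 1.40 and 1.62 in knockout, and the groups overlapped. The difference was -0.30 ± 0.35 (interval -1.20 to 0.60, adjusted p = 1), and without wild type 2 it was 0.03.

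Tgfbr1 has 4 probes, which allows its pattern to be followed along the gene. Wild type 2 was the highest array and knockout 1 the lowest on each of them. The probe at chr4:47419898-47423556, which the files place across an intron and which therefore reads spliced RNA, gave -0.99 and -0.69 in wild type and -1.58 and -1.04 in knockout, a difference of -0.47 ± 0.33. It is printed as the 1 member probe whose given position spans an intron.
Tgfbr1: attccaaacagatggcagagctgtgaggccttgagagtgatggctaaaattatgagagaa
The remaining probes, assigned to the Ensembl transcripts ENSMUST00000126171 and ENSMUST00000123962, gave -0.59 ± 0.44 and -0.74 ± 0.39, and with normexp background correction they gave -0.32 and -0.19. All 4 probes were lower in knockout with all arrays in the fit. On 2 of the 4 the groups did not overlap, the spliced one and the last. Between the arrays of high signal the 4 probes differed by -0.73 to -1.37, and between the arrays of low signal by -0.12 to 0.19. Wild type 2 was also the array with the highest summed level of immediate early genes, 889 against 123 to 190 on the others, and the part of this in the Tgfbr1 values was not tested.

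**Figure D1:**
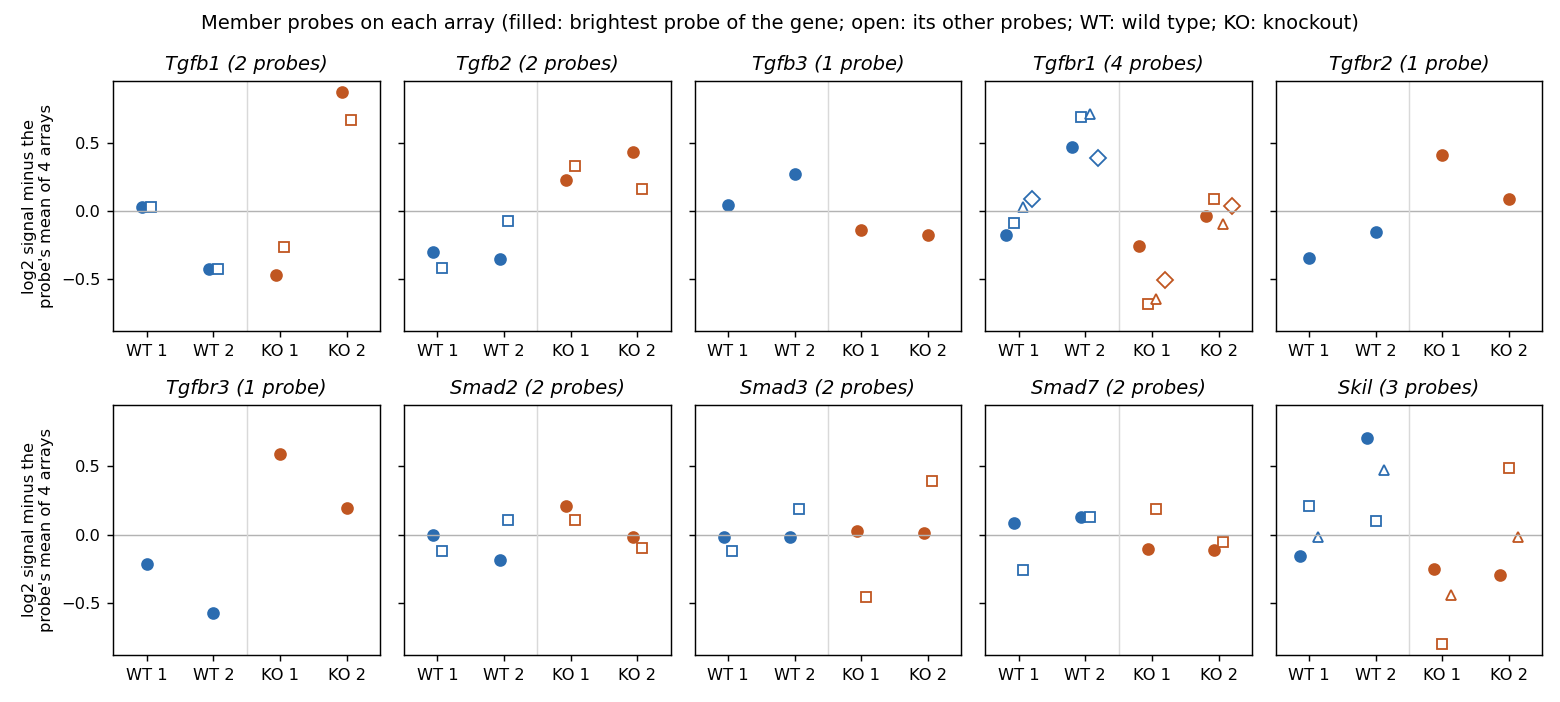
Level of every probe of the 10 genes on the 4 arrays (horizontal axis: wild type 1 and 2 in blue, knockout 1 and 2 in orange), as log2 signal minus that probe's mean over the 4 arrays (vertical axis), with filled points for the probe that stands for the gene and open points for its other probes. The knockout points of Tgfb2, Tgfbr2 and Tgfbr3 lie above the wild type points and those of Tgfb3 below, while Tgfb1 is set apart by knockout 2, whose level was 1.30, and Skil by wild type 2, whose level was 3.22.

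Of the SMADs that carry the signal, Smad3, which binds DNA at many TGF-beta response genes, read 2.24 and 2.24 in wild type and 2.29 and 2.27 in knockout. All 4 values lay within 0.05, the narrowest range of the 10 genes. The groups did not overlap, but the difference was only 0.04 ± 0.27 (interval -0.65 to 0.74), and it was -0.01 with median scaling or with the mean of both Smad3 probes. Smad2, its partner, read 0.50 and 0.31 in wild type and 0.71 and 0.48 in knockout, with overlap, and differed by 0.20 ± 0.29 (interval -0.55 to 0.94). For both genes the interval leaves room for a change of 0.5 in either direction on the log2 scale, so a difference of the size seen for Tgfbr2 was not detectable with these arrays.

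Both brakes were lower in knockout on the probe that stands for the gene. Smad7, the inhibitory SMAD that TGF-beta itself induces and that blocks the type I receptor, read 0.00 and 0.04 in wild type and -0.19 and -0.20 in knockout. The values within each group were almost equal and the groups did not overlap. The difference was -0.21 ± 0.27 (interval -0.91 to 0.49, adjusted p = 1), and the other Smad7 probe differed by 0.14 ± 0.31, in the opposite direction and with overlap. Skil (SnoN), a co-repressor that holds SMAD complexes inactive and is also a target of the pathway, read 2.35 and 3.22 in wild type and 2.26 and 2.21 in knockout. Both knockout arrays were below both wild type arrays, yet wild type 1 was closer to the knockout arrays than to wild type 2. The difference was -0.55 ± 0.39 (interval -1.55 to 0.45, adjusted p = 1), and without wild type 2, the array with the high immediate early genes, it was -0.11. Its other probes, both nearer the start of the gene on chromosome 3, differed by -0.31 ± 0.49 and -0.46 ± 0.34, with overlap on each.

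Probes of 1 gene were set side by side, since 7 of the 10 genes have more than 1. In Tgfb2 both probes were higher in knockout with no overlap: the second, at chr1:188447534-188447593, read 1.09 and 1.43 in wild type and 1.84 and 1.67 in knockout, 0.50 ± 0.30. In Tgfb1 both differed by 0.40, the second with -2.51 and -2.96 in wild type and -2.80 and -1.87 in knockout, and knockout 2 was again the highest array. With normexp background correction they differed by 0.29 and 0.13. The second probe of Smad2 differed by 0.01 ± 0.29 and turned to -0.05 with median scaling and -0.02 with cyclic loess. For Smad3 the second probe differed by -0.07 ± 0.39, with values that spread over 0.85 from -1.0 on knockout 1 to -0.15 on knockout 2. The dimmer Smad3 probe therefore did not share the narrow range of the brighter one. In all, 10 of the 20 probes were higher in knockout and 10 were lower, and 0 had an unadjusted p under 0.05 in limma, where 6.21% of all probes tested did. The groups did not overlap on 10 probes, against 30.2% of all probes. Of these, 5 were higher in knockout (16.4% of all probes) and 5 were lower (13.8%). When the probes of each gene were averaged, the groups of Tgfb2, Tgfb3, Tgfbr2 and Tgfbr3 did not overlap, and those of the other 6 genes did. Of these 4 genes, all but Tgfb2 have a single probe.

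**Figure D2:**
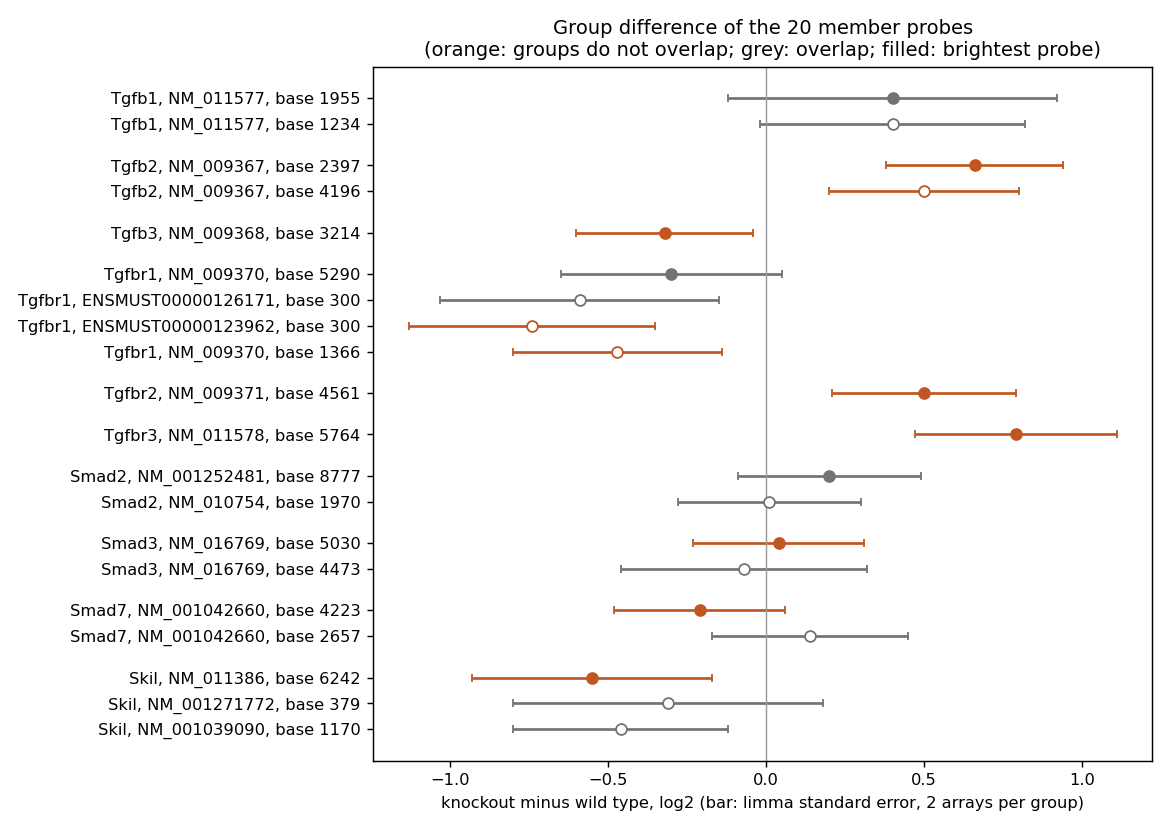
Difference of each of the 20 probes, knockout minus wild type on the log2 scale (horizontal axis), with bars of 1 limma standard error on each side, n = 2 arrays a group. Probes are named by gene, transcript and first base in the transcript, filled points are the probe that stands for the gene, and orange marks probes whose groups do not overlap: the points of Tgfb2 lie above 0, those of Tgfbr1 below, and those of Smad7 on both sides.

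Counted over the 10 genes, 0 passed an adjusted p of 0.05 in limma, where 0% of all genes did, and 0 had an unadjusted p under 0.05, where 6.29% of all genes did. The smallest unadjusted p-values of the limma fit were 0.0575 for Tgfbr3 and 0.0658 for Tgfb2. The groups did not overlap for 7 of the 10, against 29.8% of all genes tested. Of these 7, 4 were higher in knockout (Tgfb2, Tgfbr2, Tgfbr3 and, by 0.04, Smad3), where 16.1% of all genes were, and 3 were lower (Tgfb3, Smad7 and Skil), where 13.7% were. The median difference of the 10 was 0.12 against -0.01 over all genes, and their median absolute difference was 0.36 against 0.23. Their standard errors were of the usual size, with a median of 0.29 against 0.34. No test was run on these counts, as the 10 genes were picked with earlier results in view.

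The differences can also be read within pairs of like signal. Wild type 1 and knockout 2 were dim, and wild type 2 and knockout 1 were bright. The pairs also differed in marker levels. Brown adipocyte markers summed to 22.6 and 4.76 in the dim pair and to 344 and 110 in the bright pair. Fibroblast markers summed to 1120 and 1200 in the dim pair and to 629 and 816 in the bright pair. The part of this in the values below was not tested. With 1 array a group in each pair there is no test. Tgfb2 was higher in knockout by 0.74 in the dim pair and 0.58 in the bright pair, and Tgfbr2 by 0.43 and 0.57. The groups of these genes do not overlap, which fixes the direction in any such pair. The sizes were close in both pairs. How far they differ is set by the gaps between arrays of the same group, so their closeness adds no separate evidence. For Tgfbr3, Tgfb3, Smad7 and Skil the direction was fixed in the same way. Tgfbr3 was higher by 0.41 in the dim pair and 1.17 in the bright pair. Tgfb3 was lower by -0.22 and -0.41, and Smad7 by -0.20 and -0.23. The patterns of 3 genes were uneven between the pairs: Skil differed by -0.14 and -0.96, Tgfbr1 by 0.13 and -0.73, and Tgfb1 by 0.84 and -0.03. Smad2 differed by -0.02 and 0.41. With signal level as a block in limma, Tgfb2 had an unadjusted p of 0.0325 and an adjusted p of 0.351. Calls over all genes rose with that block as well. Of 22497 genes, 2814 had an unadjusted p under 0.05, against 1416 without the block.

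**Figure D3:**
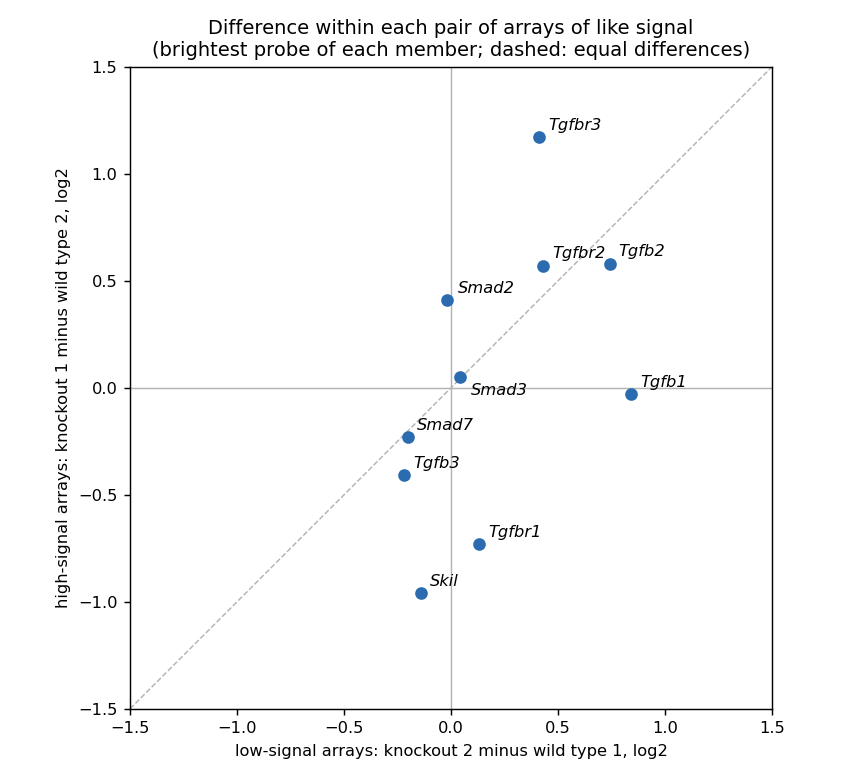
Difference of each of the 10 genes within the dim pair (horizontal axis, knockout 2 minus wild type 1) and within the bright pair (vertical axis, knockout 1 minus wild type 2), both log2, with 1 array a group and no test. Tgfb2 (0.74 and 0.58) and Tgfbr2 (0.43 and 0.57) lie near the dashed line of equal differences, and Tgfb1, Tgfbr1 and, by -0.02, Smad2 have opposite signs in the pairs.

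The profiles of the genes over the 4 arrays were compared by Euclidean distance after each gene's mean was subtracted, a description over 4 arrays that share their scaling. Tgfb3 and Smad7 were nearest to each other (0.18), as were Smad2 and Smad3 (0.25). These genes had narrow ranges over the arrays, 0.46, 0.23, 0.41 and 0.05 in that order. A narrow range by itself keeps such distances short. The nearest gene to Tgfb2 was Tgfbr2 (0.44), the nearest to Tgfbr3 was also Tgfbr2 (0.49), and the nearest to Skil was Tgfbr1 (0.35). Tgfb1 lay farthest from the rest, with Tgfb2 nearest at 0.89. Among all genes tested, the nearest to Tgfb1 were Pamr1 (0.055), Gm6287 (0.11) and AF457567 (0.12), and the nearest to Tgfbr3 were 2 probes that the files name only by position (0.088 and 0.091) and Chst15 (0.10). They are a few of many close genes: 14 lay within 0.2 of Tgfb1 and 41 within 0.2 of Tgfbr3. Gm6287 and AF457567 were dim, with wild type means of -4.06 and -4.52, and AF457567 was above background on 3 arrays.

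The other genes of the pathway were counted from lists by role, and no gene among the 115 reached an adjusted p of 0.05 in limma. An unadjusted p under 0.05 is given for orientation, which 3.84% of all genes had in the higher direction and 2.45% in the lower. In the list for latency and activation of the ligands, 2 of 21 tested genes had it in the higher direction and 2 in the lower, with a list median of -0.14. Itgb3, the beta chain of an integrin that can release TGF-beta from its latent complex, read 4.01 and 4.22 in wild type and 2.99 and 2.88 in knockout, -1.18 ± 0.28 (unadjusted p = 0.00876, adjusted p = 0.488 in limma). Both knockout arrays were more than 1 log2 unit below both wild type arrays. Nrros, which holds latent TGF-beta on macrophages and microglia, read 1.45 and 1.79 in wild type and 3.20 and 2.53 in knockout, 1.24 ± 0.36, in the direction of the macrophage markers. Fbn2, a fibrillin of the microfibrils that store latent complexes, differed by -1.03 ± 0.32. Aspn, a small proteoglycan that binds TGF-beta, differed by 0.98 ± 0.31 and is named because the count is small, after its value was seen. Dcn and the latent binding proteins Ltbp3 and Ltbp4 differed by 0.09 ± 0.44, -0.01 ± 0.35 and 0.22 ± 0.37.

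Among co-receptors and receptor regulators, 1 of 14 had an unadjusted p under 0.05, in the higher direction, and the list median was 0.06. This was Cd109, a surface protein that binds TGF-beta and dampens its receptors, with 0.42 and 0.71 in wild type and 1.24 and 1.71 in knockout, 0.90 ± 0.32 (adjusted p = 0.745 in limma). Dab2, an adaptor that links the receptors to SMADs and to endocytosis and is also abundant in tissue macrophages, differed by 0.81 ± 0.38. Pmepa1, a target of the pathway that curbs SMAD activation, differed by -0.55 ± 0.36. The mean difference of Skil was equal, but the array values were unlike. Pmepa1 read 5.9 and 5.42 in wild type and 4.84 and 5.38 in knockout, highest on wild type 1, whereas Skil was set apart by wild type 2. Of the 5 other SMADs and of the 17 co-repressors and turnover factors, 0 had an unadjusted p under 0.05 in limma. Smad4, the common partner of SMAD2 and SMAD3, read 3.39 and 3.27 in wild type and 3.54 and 3.47 in knockout, 0.17 ± 0.27, and Smad1 and Smad5 of the BMP branch differed by 0.17 ± 0.28 and 0.05 ± 0.32. Tgif1 and Zeb2, repressors that bind SMADs, differed by 0.49 ± 0.27 and 0.44 ± 0.28, and Usp15, which removes ubiquitin from SMADs and receptors, by -0.24 ± 0.28 on its brightest probe, a direction that 4 of its 10 probes shared.

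In the list of genes known to respond to TGF-beta, 1 of 33 had an unadjusted p under 0.05 in the higher direction and 2 in the lower, and the list median was -0.09 (-0.324 without knockout 2, and 0.018 without wild type 2). Eln (elastin) read 4.90 and 4.33 in wild type and 3.27 in both knockout arrays, -1.35 ± 0.33 (adjusted p = 0.50 in limma). Cdkn1a (p21), the cell cycle inhibitor, differed by -1.28 ± 0.44, and Comp, a matrix protein of cartilage and of fibrotic tissue, by 1.77 ± 0.57. The response genes thus included large differences in both directions. The collagen genes Col1a1 and Col3a1 differed by 0.08 ± 0.42 and 0.00 ± 0.39, with wild type 1 and knockout 2 the high arrays for both. Ctgf, which responds early to the ligand, was highest on wild type 2: it read 6.20 and 7.82 in wild type and 6.24 and 6.39 in knockout. The contractile gene Cnn1, also on the smooth muscle list, differed by -0.62 ± 0.27.

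Of the BMP and activin branches, which share SMAD4 and some regulators with TGF-beta, 28 of 33 genes were tested and 2 had an unadjusted p under 0.05 in the higher direction and 1 in the lower, with a list median of -0.01. Bmp5, a ligand, read -3.63 and -4.42 in wild type and -2.28 and -1.77 in knockout, 2.0 ± 0.40 (adjusted p = 0.377 in limma, the lowest of the pathway genes). Fstl3, which binds activins, differed by -0.78 ± 0.27. The receptor Acvr1c, which fat cells express strongly, read 0.07 and 1.49 in wild type and 0.71 and -5.53 in knockout, low on the array where white adipocyte genes were low. Its probe was above background on 3 arrays, so the value of -5.53 may be only a bound.

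**Figure D4:**
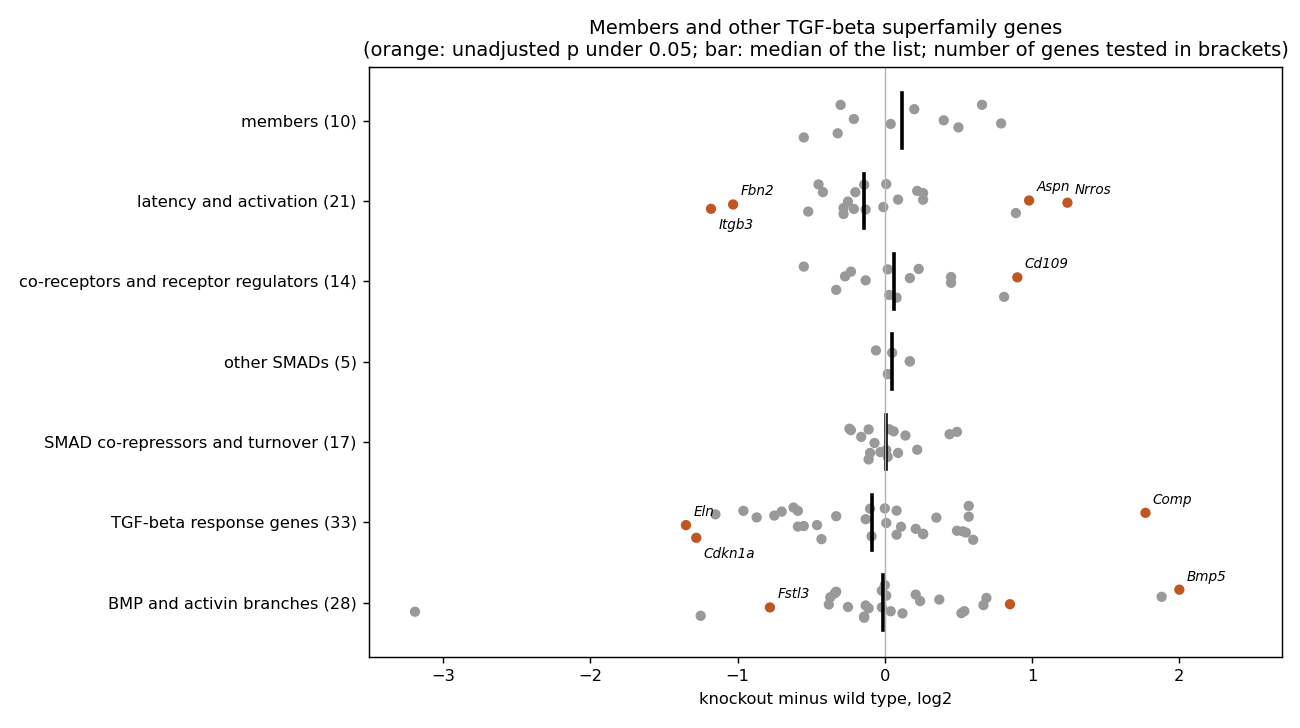
Difference of every tested gene of the 10 members and of the 6 pathway lists, knockout minus wild type on the log2 scale (horizontal axis), with the list median as a bar and the number of genes tested in brackets. The members spread from -0.55 to 0.79 around a median of 0.12, inside the range of the latency, response and BMP lists, and the orange points with an unadjusted p under 0.05 are all outside the member list.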

How the data were processed

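RNA was labelled with Cy3 and measured on 4 Agilent 1-colour arrays of 1 slide. The processed, mean and background signals are intensity values per the file headers, which name Feature Extraction 12.0.3.1; the submitters' processing notes name version 10.7 and limma with no role. The authors' deposited log2 values served as an alternative. Flags for outliers, saturation and background are other values per the file headers. Positions are on mm9 as the files give them, with no exon annotation used.

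Each array's 75th percentile was subtracted from log2 of its processed signal. Outlier spots (0 among the member probes) were dropped, 0 spots were saturated, and spots of a probe were averaged. The 35102 probes above background on 2 or more of 4 arrays were tested, and the brightest probe stood for a gene name. The groups were compared in limma 3.58.1 (lmFit, eBayes; R 4.3.3, with the data.table package at version 1.17.8), two-sided, with Benjamini-Hochberg adjustment and a threshold of 0.05, tested on simulated data first. The number of arrays limits the precision. Plots used Python 3.11.15 and matplotlib 3.10.9.

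The members, the 6 pathway lists and the 11 marker lists were chosen with earlier results of these data known. Named were all members with their probes, the 3 genes of each list with the smallest p (1 of them is not reported here), Msr1 and the nearest genes by distance; further list genes (Aspn, Dcn, Ltbp3, Ltbp4, Col1a1, Col3a1, Ctgf, Cnn1, Acvr1c) were named after their values were seen. Genes of the lists too dim to test were Itgb6, Bmp7, Bmp10, Gdf2, Gdf11 and Mstn. Summed levels of the remaining marker lists were, in the order wild type 1 and 2 and knockout 1 and 2, 1120, 629, 816 and 1200 for fibroblasts, 92.2, 71.8, 116 and 79.8 for endothelium, 2.12, 2.0, 3.06 and 3.32 for T and NK cells, 0.967, 1.34, 0.99 and 0.98 for B cells, 6.52, 11, 28 and 15.9 for platelets, 22.6, 344, 110 and 4.76 for brown adipocytes and 1030, 323, 124 and 215 for skeletal muscle.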

Additional observations from a re-analysis of the deposited data

How the results depend on the processing

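With 2 arrays a group the precision is low, and 17 alternatives were tried. Tgfb2, Tgfb3, Tgfbr2, Tgfbr3, Smad2, Smad7 and Skil kept their direction under every alternative, but most alternatives could not have changed it. Except for Smad2, their groups do not overlap, so leaving out 1 array cannot reverse the sign. The filters, kept outlier spots, intensity trend, robust eBayes, array weights and block left the differences almost unchanged. The other normalizations, normexp, the deposited values and, for genes with several probes, the mean of probes could change it. With the mean of probes Smad7 went from -0.21 to -0.04. With all arrays kept, 0 members passed an adjusted p of 0.05 in limma. Smad3 was -0.01 with median scaling and with the mean of a gene's probes, and the second Smad2 probe was -0.05 with median scaling and -0.02 with cyclic loess. Normexp took the second Tgfb1 probe from 0.40 to 0.13, the second Smad7 probe from 0.14 to 0.04 and the dimmest Tgfbr1 probe from -0.74 to -0.19. Leaving out 1 array gave -0.26 to 1.07 for Tgfb1 (-0.07 to 0.87 for its second probe), -0.62 to 0.03 for Tgfbr1 (-0.74 to -0.20 for its spliced probe, -0.98 to -0.20 and -1.09 to -0.39 for the others), -0.11 to 0.12 for the second Smad2 probe, -0.49 to 0.36 for the second Smad3 probe, -0.06 to 0.33 for the second Smad7 probe and -0.95 to 0.34 for the Skil probe nearest the start.

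The number of members with an unadjusted p under 0.05 was 1 with quantile normalization, cyclic loess, normexp, probes above background on all 4 arrays, the deposited values or the signal-level block, and 2 with an intensity trend (Tgfb2 0.0365, Tgfbr3 0.0328). Over all genes the counts in that order were 1495, 1465, 924, 1183, 1494, 2814 and 1448, against 1416 in the main fit. The genes tested numbered 22497, but 20085 with all 4 arrays above background and 22498 with the deposited values. The members number 10, and no test compared their counts with those of all genes, so no gain in support is read from them. Members without overlap numbered 5 with median scaling, 5 with normexp, 6 with cyclic loess and 4 with the mean of probes. The shares of all genes in that order were 29%, 20.9%, 30.9% and 31.3%. The median difference of the members was 0.147 with quantile normalization, 0.068 with median scaling, 0.099 with normexp, 0.045 with the mean of probes and 0.15 with the deposited values. It was -0.08 to 0.167 with 1 array left out, the lowest without knockout 2.

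Over all genes, the count past an adjusted p of 0.05 was 0, and 8 with quantile normalization, 7 with median scaling, 8 with cyclic loess, 22 with normexp, 8 with no filter, 5 with a trend, 2 with array weights, 8 with the deposited values, 17 at a threshold of 0.1, 1416 for an unadjusted p, and 0 to 371 with 1 array left out (260 without wild type 1, 371 without wild type 2). The share of higher calls among unadjusted p under 0.05 was 61.1%, against 50.5% with normexp and 50.6% with the block.

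Of the lists, co-repressors had a median of -0.042 with median scaling, -0.034 with normexp and -0.1 to 0.065 with 1 array left out. With 1 array left out, medians were -0.061 to 0.148 for BMP and activin branches, 0.006 to 0.258 for co-receptors, -0.324 to 0.018 for response genes and -0.359 to 0.207 for latency. Counts with an unadjusted p under 0.05 were 5 for BMP with the block (1 to 5 with 1 array left out), 7 for response genes with the block (2 to 9) and 3 for co-receptors with the block, 0 with median scaling and 0 with no filter (0 to 0), and 1 to 4 for latency with 1 array left out. The genes tested in these lists number 28 for BMP, 33 for response genes, 14 for co-receptors and 21 for latency. Without the block and with all arrays, 3, 3, 1 and 4 of them had an unadjusted p under 0.05. With the block the count over all genes also rose, from 1416 to 2814 of 22497. The rise in the lists with the block cannot be set apart from that one. A fit without 1 array leaves 1 array in a group, so its counts are not compared. The cause of these shifts was not tested. No paired analysis was possible because the labels' numbers differ between the groups, so none joins arrays by label. The signal-level block joins arrays by their brightness, and the same pairs also differ in brown adipocyte and fibroblast markers.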
